A study of Mus musculus with 4 samples.

Results

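The genes described here are 10 members of the BCL2 family, taken by symbol: Bcl2, Bcl2l1 and Mcl1 (pro-survival), Bax and Bak1 (effectors), and Bbc3, Pmaip1, Bcl2l11, Bid and Bmf (BH3-only). All 10 were found among the 25239 gene symbols counted, and all 10 were among the 14525 genes with enough counts to be tested. The family sets whether a cell under stress keeps its mitochondria intact or releases cytochrome c and dies by apoptosis. Pro-survival proteins hold the effectors BAX and BAK in check, and BH3-only proteins, induced by stress, loss of growth factors or p53, relieve that restraint or activate the effectors directly. Embryonic stem cells are known as cells close to the threshold of this switch.

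Polyadenylated RNA came from mouse embryonic stem cells with both alleles of Ogt flanked by loxP sites (Ogt fl/fl), grown with LIF over feeder fibroblasts whose division had been blocked with mitomycin C. Ogt encodes O-GlcNAc transferase, which adds N-acetylglucosamine to serine and threonine residues of proteins. The knockout group (Ogt iKO) held 2 libraries of cells kept for 6 days with 4-hydroxytamoxifen (4-OHT), and the control group held 2 libraries of Ogt fl/fl cells kept for 6 days without it. The cells were sorted for viability and against feeders, and the treated cells were also sorted for a yellow fluorescent protein, so treatment, this extra gate and the loss of Ogt cannot be told apart. The labels name neither the recombinase nor its promoter, nor whether the libraries of a group came from separate cultures. The p values therefore measure the spread between these libraries, which may be technical.

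Library totals ran from 14668489 to 16504204 counts, so that a gene with a count of 0 could still lie at up to 3 counts, which is 0.175 to 0.195 CPM (counts per 1000000 of the scaled library total). The targeted gene, Ogt, was counted 2963 and 3108 times in the controls and 437 and 389 times in Ogt iKO, a fall of the kind the labels name. Across all tested genes 4827 rose and 4651 fell at an adjusted p under 0.05 (edgeR quasi-likelihood test, Benjamini-Hochberg adjustment), that is 65.3% of them, so a call on its own sets no gene apart here. Of the calls 50.9% were rises, against 65.1% with scaling by library totals alone, which moved the log2 fold change of the median gene from 0.02 to 0.19. The 10 stem cell markers checked were all well above background (Pou5f1 at 489 to 894 CPM), and 9 of them fell in Ogt iKO. The 18 feeder fibroblast markers summed to 4947 CPM in Ogt iKO replicate 1 and 2333 CPM in replicate 2, around the controls at 2815 and 3093 CPM. None of the 18 was at 0, with Col1a1 at 180 to 904 CPM and Lum at 5.09 to 25.5 CPM. By the same test 4 of the 18 rose in Ogt iKO (Tagln 6.06-fold, Acta2 3.29-fold, Pdgfrb 3.06-fold and Sparc 1.77-fold), Vim fell, and 13 did not pass. The labels give CD90.2 as the surface marker kept and CD326 as the one excluded. Epcam, which encodes CD326, stood at 280 to 347 CPM, while Thy1, which encodes CD90, stood at 8.90 to 25.6 CPM.

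The sequences just before the start of 4 members are shown first, because these members carry a match to a site of p53 or of FOXO factors, regulators known to act on this family, and because the members with a FOXO match moved in opposite directions. Each run is the 250 bases before a RefSeq start of the GRCm38.p6 build, 5′ to 3′ on the strand of the gene, with matches in capitals. None of the 4 windows lies under an annotated exon.
Bax (chr7:45466899-45467148, minus strand): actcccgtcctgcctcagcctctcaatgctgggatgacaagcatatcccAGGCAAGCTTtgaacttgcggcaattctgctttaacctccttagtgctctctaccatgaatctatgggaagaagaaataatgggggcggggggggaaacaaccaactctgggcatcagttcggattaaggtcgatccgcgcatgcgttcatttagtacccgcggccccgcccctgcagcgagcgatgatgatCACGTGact
Bmf (chr2:118544588-118544837, minus strand): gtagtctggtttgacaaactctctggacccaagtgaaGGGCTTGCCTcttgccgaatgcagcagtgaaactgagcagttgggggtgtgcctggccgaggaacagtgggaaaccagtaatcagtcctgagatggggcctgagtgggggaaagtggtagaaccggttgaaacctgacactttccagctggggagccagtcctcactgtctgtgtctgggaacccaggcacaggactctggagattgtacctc
Bbc3 (chr7:16310011-16310260, plus strand): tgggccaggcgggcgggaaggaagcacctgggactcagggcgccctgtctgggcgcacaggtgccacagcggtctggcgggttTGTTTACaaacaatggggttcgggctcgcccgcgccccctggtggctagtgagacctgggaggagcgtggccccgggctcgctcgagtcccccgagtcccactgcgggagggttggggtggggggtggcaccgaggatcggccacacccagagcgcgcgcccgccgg
Bcl2l11 (chr2:128125788-128126037, plus strand): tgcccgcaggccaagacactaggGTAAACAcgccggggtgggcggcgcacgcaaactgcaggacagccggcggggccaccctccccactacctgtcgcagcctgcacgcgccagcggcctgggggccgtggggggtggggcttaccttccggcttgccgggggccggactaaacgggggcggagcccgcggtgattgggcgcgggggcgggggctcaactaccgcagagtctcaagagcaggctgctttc

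In the Bax run the capitals mark a match to the 10-base p53 half-site, beginning 201 bases before the start, and an E-box (CACGTG, bound by MYC proteins), beginning 9 bases before it. The Bmf run holds a p53 half-site beginning 213 bases before this start, which is 1 of the 3 starts RefSeq gives that gene. A FOXO site (GTAAACA or its reverse complement TGTTTAC) begins 167 bases before the start in the Bbc3 run, which is 1 of 3 starts of that gene, and 227 bases before the start in the Bcl2l11 run, 1 of 2 starts. The other windows of these genes held no FOXO site, and the other windows of Bmf no p53 half-site. Both strands were searched for 5 motifs, and no 2 matches overlapped. A p53 half-site occurred in 7.13% of the 32851 windows of this length before RefSeq starts, a FOXO site in 3.17%, an E-box in 6.02%, an E2F site (TTTNGCGC) in 1.13% and a STAT site (TTCNNNGAA) in 7.02%. Among the 16 windows of the 9 members searched (all but Pmaip1, whose promoter was not used here), the first 3 motifs were each found in 2 windows, the E2F site in 1 and the STAT site in 0. A match describes the letters of the window and does not show that a factor binds there.

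The pro-survival members moved apart in Ogt iKO. Bcl2l1, which encodes the pro-survival protein BCL-XL and, by splicing, a short form that promotes death, rose 1.76-fold. Mcl1, which encodes a short-lived pro-survival protein that binds BAK and most BH3-only proteins, fell to 86.1% of control. Bcl2, the founding member of the family, was barely expressed in either group and did not pass the test.

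Bcl2l1 (chromosome 2, 152780668 to 152831728, minus strand, GRCm38) had 94.6 and 92.8 CPM in Ogt iKO replicates 1 and 2, against 53.8 and 52.7 CPM in the controls. The groups did not overlap, and the gap between them was far wider than the spread within either. The log2 fold change was 0.81 (SE 0.068, 95% interval 0.66 to 0.97, adjusted p 1.968e-05, edgeR), the smallest adjusted p of the 10 genes. Of all tested genes, 28.7% had a larger change in size, so even this member was not among the extremes of these libraries. Counts are per gene, so the long and short forms were not examined.

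Mcl1 (chromosome 3, 95658788 to 95663176, plus strand) had 805 and 864 CPM in Ogt iKO against 983 and 957 CPM in control. Both knockout libraries lay below both controls, but the knockout libraries stood well apart from each other, with a mean of 835 ± 41.9 (SD, n = 2) against 970 ± 18.2 CPM. The log2 fold change was -0.22 (SE 0.060, 95% interval -0.35 to -0.08, adjusted p 0.0122, edgeR). This fall was the smallest change of the 10 genes. Its call was lost without Ogt iKO replicate 1 (-0.16, adjusted p 0.0582, edgeR), without control replicate 1 (-0.20, adjusted p 0.0592) and with scaling by library totals (-0.05, adjusted p 0.482).

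Bcl2 (chromosome 1, 106538178 to 106714274, minus strand) was counted 50 and 37 times in Ogt iKO and 29 and 23 times in the controls, or 2.92 and 2.39 CPM against 1.87 and 1.5 CPM. The libraries did not overlap, yet at such counts the interval of its log2 fold change ran from 0.03 to 1.28 around 0.65 (SE 0.27, adjusted p 0.0612, edgeR). Under library totals it passed the test (0.82, adjusted p 0.0265, edgeR), while DESeq2 gave an adjusted p of 0.363. At this depth no direction can be stated for Bcl2.

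The effector genes moved in opposite directions. Bax rose to 141% of control and Bak1 fell to 61.1%. BAX moves from the cytosol to mitochondria when cells are stressed and BAK sits in the outer mitochondrial membrane, and either protein can form the pores through which cytochrome c leaves.

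Bax (chromosome 7, 45461697 to 45466898, minus strand) had 303 and 330 CPM in Ogt iKO against 227 and 223 CPM in control. Its log2 fold change was 0.49 (SE 0.061, 95% interval 0.35 to 0.63, adjusted p 0.000163, edgeR). Bak1 (chromosome 17, 27019810 to 27029009, minus strand) had 66.0 and 69.4 CPM in Ogt iKO against 113 and 109 CPM in control, a log2 fold change of -0.71 (SE 0.065, 95% interval -0.86 to -0.56, adjusted p 3.345e-05, edgeR). For each gene the groups were separate, and the intervals of the 2 genes lay on opposite sides of 0. Within each library, the ratio of Bax to Bak1 per kb of exon was 2.81 and 2.86 on the log2 scale in Ogt iKO, and 1.62 and 1.64 in control. This ratio does not depend on how libraries are scaled, and it was higher in both Ogt iKO libraries than in both controls. An exon of Ggnbp1 on the opposite strand covers 25.5% of the exon length of Bak1, and Ggnbp1 had 1.30 to 2.51 CPM. Whether reads in the shared stretch were lost, or counted for the other gene, was not tested. Exons of Gm45808, not analysed here, cover 12.2% of the exon length of Bax on the same strand.

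Of the 5 BH3-only genes, 3 rose and 2 fell in Ogt iKO. The risers were Pmaip1 (NOXA, which binds MCL1), Bbc3 (PUMA, which binds every pro-survival member) and Bmf (BMF, tied to the cytoskeleton until freed by stress). Bcl2l11 (BIM, a strong activator of BAX and BAK that ERK signalling marks for destruction) and Bid (BID, cleaved by caspase-8 to carry death receptor signals to mitochondria) fell.

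Pmaip1 had 280 and 298 CPM in Ogt iKO against 187 and 171 CPM in control, which made it the most abundant BH3-only transcript in all 4 libraries, also per kb of exon. Its log2 fold change was 0.69 (SE 0.066, 95% interval 0.54 to 0.84, adjusted p 4.034e-05, edgeR). Bbc3 (chromosome 7, 16308393 to 16318205, plus strand) had 39.3 and 42.3 CPM in Ogt iKO against 27.3 and 26.5 CPM in control. The rise of Bbc3 was 0.60 on the log2 scale (SE 0.084, 95% interval 0.41 to 0.79, adjusted p 0.000306, edgeR). The p53 half-site was found before Bax and Bmf, in no window of Bbc3, and was not searched before Pmaip1. Of the p53 family, whose motif this is, Trp53 fell from 494 and 506 CPM in control to 313 and 335 CPM in Ogt iKO (log2 fold change -0.63, adjusted p 3.87e-05, edgeR). Trp73, which encodes p73, rose from 8.46 and 10.2 CPM to 18.4 and 19.2 CPM (1.006 on the log2 scale, adjusted p 0.000307, edgeR).

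Bmf (chromosome 2, 118528757 to 118549687, minus strand) had 79.5 and 69.4 CPM in Ogt iKO against 56.4 and 50.3 CPM in control. Relative to its level it had the widest gap between knockout libraries among the 9 genes that passed the test, and the groups still did not overlap. The log2 fold change of Bmf was 0.48 (SE 0.093, 95% interval 0.27 to 0.69, adjusted p 0.00195, edgeR).

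Bcl2l11 (chromosome 2, 128126038 to 128162547, plus strand) had 39.0 and 36.7 CPM in Ogt iKO against 61.3 and 60.9 CPM in control. The fall to 62.0% of control was close in size to that of Bak1 (log2 fold change -0.69, SE 0.077, 95% interval -0.87 to -0.51, adjusted p 9.194e-05, edgeR). Bbc3 and Bcl2l11, whose windows with a FOXO site are printed above, thus moved in opposite directions. The log2 ratio of Bbc3 to Bcl2l11 per kb was 1.93 and 2.12 in Ogt iKO but only 0.75 and 0.72 in control. Foxo3, named here because its motif was searched, rose by 0.56 on the log2 scale (adjusted p 0.000583, edgeR), while Foxo1 had a log2 fold change of 0.01 (adjusted p 0.898).

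Bid (chromosome 6, 120891930 to 120916853, minus strand) had 53.9 and 56.9 CPM in Ogt iKO against 66.3 and 67.0 CPM in control. Its log2 fold change was -0.27 (SE 0.073, 95% interval -0.43 to -0.10, adjusted p 0.0111, edgeR). The call was lost with scaling by library totals (-0.10, adjusted p 0.255, edgeR) and without control replicate 2 (-0.27, at an adjusted p just over 0.05). Its neighbour on the opposite strand, Bcl2l13, covers 17.7% of the exon length of Bid and moved the other way, so reads of one could count for the other if strand was not used. That was not tested.

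**Figure D1:**
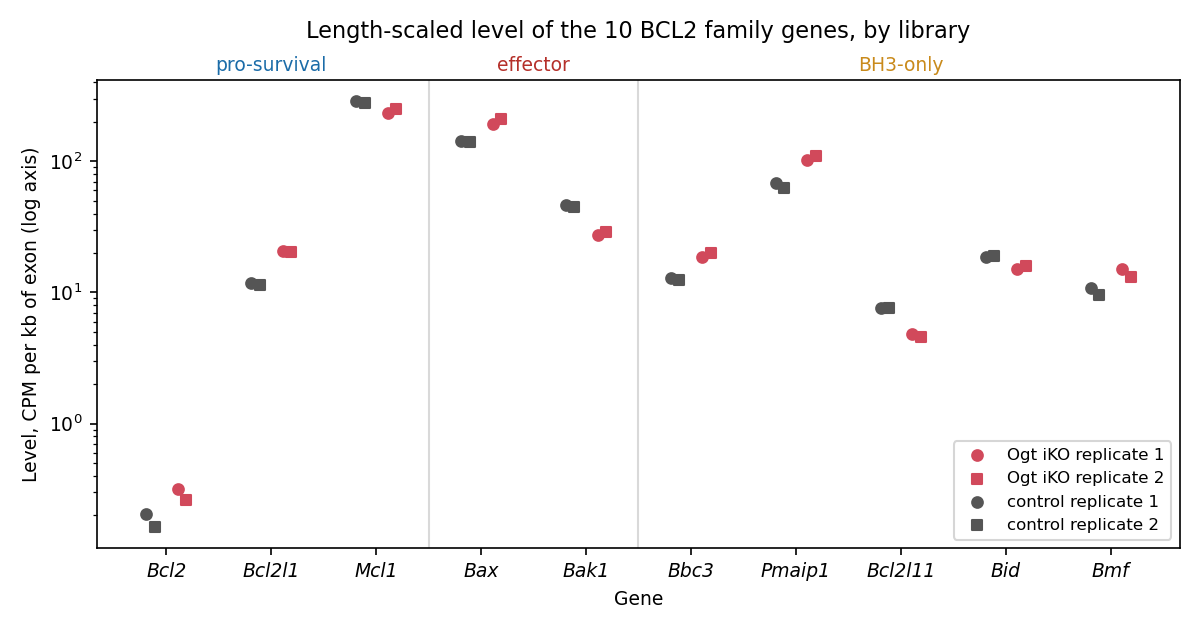
Level of each of the 10 genes in CPM per kb of exon, on a log axis, with 1 point per library (grey for control, red for Ogt iKO, circles for replicate 1 and squares for replicate 2). Mcl1 and Bax stand highest in all 4 libraries, and Bcl2 lies lowest, at up to 0.319.

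**Figure D2:**
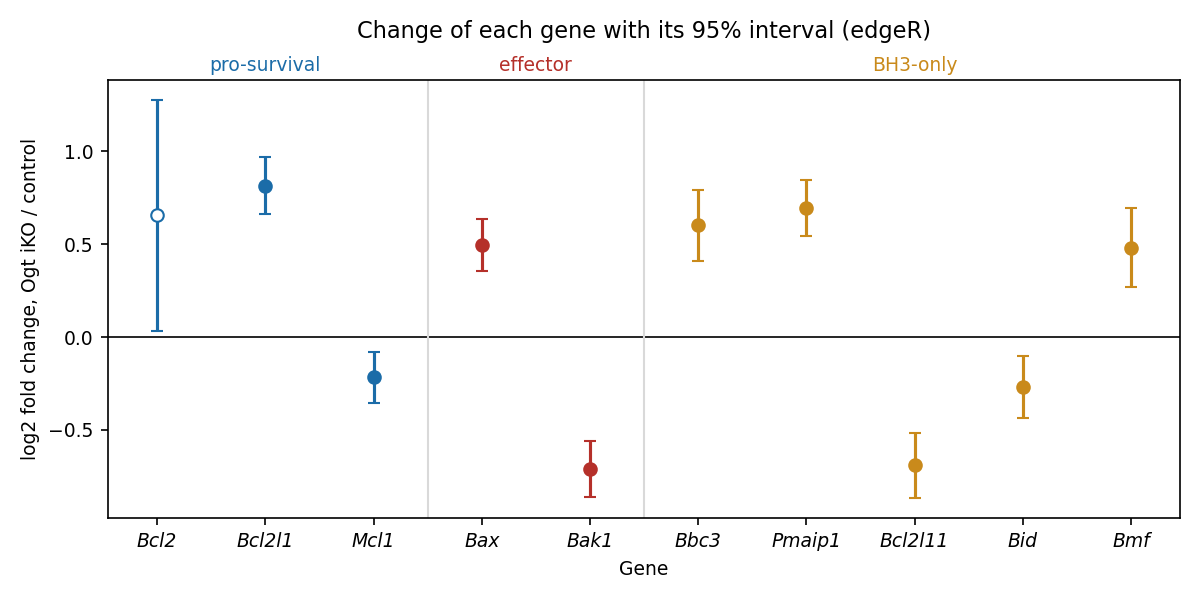
Log2 fold change of each gene, Ogt iKO over control, with its 95% interval from edgeR; filled points passed the test at an adjusted p under 0.05 and the open point did not. Each role holds at least 1 gene above 0 and at least 1 below it, from 0.81 for Bcl2l1 to -0.71 for Bak1.

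In all, 5 of the 10 members rose and 4 fell, against a background of 33.2% of tested genes higher and 32.0% lower. Their groups did not overlap for 10 of 10, with 6 higher and 4 lower, against 83.2% of tested genes, 42.3% higher and 40.9% lower. The median log2 fold change of the 10 was 0.49, beside 0.02 over all tested genes, and each of the 3 roles held genes on both sides of 0. The absolute sizes were ordinary for these libraries: the share of tested genes with a larger change ran from 28.7% for Bcl2l1 to 75.4% for Mcl1. The plot of changes by role shows the rises and falls side by side.

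The feeder marker totals given above differ most between the 2 Ogt iKO libraries, at 4947 and 2333 CPM, and so bear on any gene that fibroblasts also express. The 4 feeder markers that rose were higher than both controls in each Ogt iKO library. In replicate 2 Tagln stood at 222 CPM against 34.9 and 44.2 CPM in control. Leaving out either library therefore does not turn that part of the list. Every other marker of the 18 lay below both controls in Ogt iKO replicate 2. Col1a1 stood there at 180 CPM against 293.9 and 313.5 CPM, and Lum at 5.09 against 14.5 and 18.1 CPM. Bcl2l1, Bax, Bbc3, Pmaip1 and Bmf were called higher, and Bak1 and Bcl2l11 lower, both without Ogt iKO replicate 1 and without replicate 2. Their log2 fold changes with 1 library left out ran from 0.79 to 0.82 for Bcl2l1, 0.41 to 0.56 for Bax, -0.77 to -0.67 for Bak1, and -0.73 to -0.67 for Bcl2l11. For Bbc3 they ran from 0.52 to 0.66, for Pmaip1 from 0.62 to 0.75 and for Bmf from 0.39 to 0.56. These RNA levels come from bulk samples, in which fewer cells of a type and less RNA per cell cannot be told apart. Stem cell markers fell alongside, with Pou5f1 down by 0.71 on the log2 scale, and the part of these and of the feeder markers in the changes of the members was not tested.

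**Figure D3:**
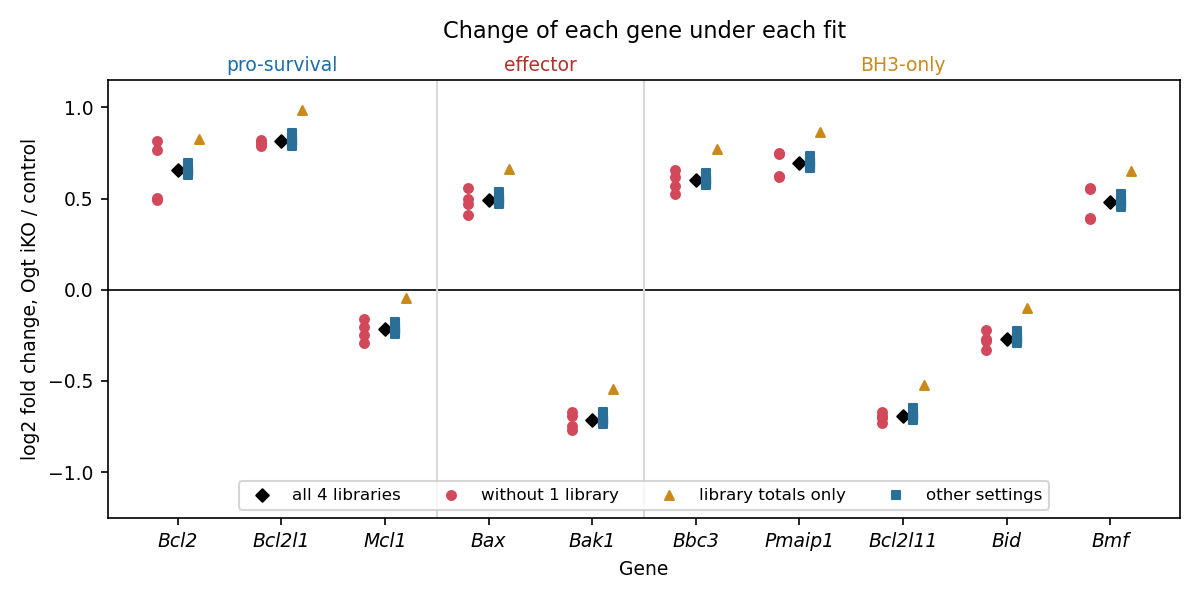
Log2 fold change of each gene in the fit of all 4 libraries (black diamonds), with each library left out in turn (red circles), with scaling by library totals only (orange triangles) and under the other settings (blue squares). No point crosses 0, and the triangles lie above the diamonds for every gene.

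Levels of different genes were compared per kb of exon, as CPM divided by the length of the union of their exons. In the controls Mcl1 was highest at 284 CPM per kb ± 5.33 (SD, n = 2), followed by Bax at 143 ± 1.80 and Pmaip1 at 65.4 ± 4.14 CPM per kb. Bak1 came next at 46.0 ± 1.14 CPM per kb, then Bid, Bbc3, Bcl2l1 and Bmf between 18.8 and 10.2 CPM per kb, and Bcl2l11 at 7.61 ± 0.032. Bcl2 was last at 0.184 ± 0.029 CPM per kb, 41.3 times below Bcl2l11. No 2 neighbours in this order overlapped in their library ranges, though Bbc3 and Bcl2l1 stood only 1.09 times apart.

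With these lengths the top 4 in Ogt iKO kept their order, with Mcl1 at 244 ± 12.2 and Bax at 201 ± 12.0 CPM per kb (SD, n = 2). The gap between these genes narrowed from 1.99 times in control to 1.22 times. Bcl2l1 moved from rank 7 to rank 5, at 20.4 ± 0.279 CPM per kb, and Bid from rank 5 to rank 7, at 15.6 ± 0.584 CPM per kb. Ranges of neighbours again did not overlap, with Bcl2l1 and Bbc3 the closest pair at 1.06 times. These orders depend on the length used. With the longest transcript of each gene as its length, Bax stood above Mcl1 in Ogt iKO (37.3% against 31.6% of the summed level of the 10 genes), while Mcl1 stood above Bax in control (41.3% against 29.7%). Bcl2l1 then moved from rank 6 to rank 4, above Bak1, and Bid from rank 5 to rank 6, where its range overlapped that of Bbc3. In control the ranges of Bcl2l11 and Bmf overlapped with this length.

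Of the summed level of the 10 genes per kb, the pro-survival members held 40.6% and 40.5% in Ogt iKO and 49.2% and 49.5% in control. The effectors held 34.8% and 35.3% in Ogt iKO but 31.3% and 31.7% in control. The BH3-only genes held 24.7% and 24.2% in Ogt iKO but 19.4% and 18.8% in control. The libraries of a group lay within 1 percentage point of each other while the pro-survival share differed by 8.82 points between groups. The summed levels themselves went from 300 and 292 CPM per kb in control to 257 and 273 in Ogt iKO for pro-survival genes, and from 191 and 187 to 220 and 238 for effectors. BH3-only genes went from 118 and 111 to 156 and 163 CPM per kb. With scaling by library totals the pro-survival sums overlapped between groups, at 272 and 289 CPM per kb in Ogt iKO and 281 and 276 in control, while the sums of both other roles were still higher in Ogt iKO. The shares do not depend on this scaling. Mcl1 made up most of the pro-survival share, with 37.2% and 37.5% of the sum in Ogt iKO against 47.3% and 47.5% in control. The share of Bcl2l1 went the other way, from 1.93% and 1.95% in control to 3.26% and 3.0% in Ogt iKO.

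As a ratio within each library, effectors and BH3-only genes together over pro-survival genes stood at 0.55 and 0.55 (log2) in Ogt iKO and at 0.04 and 0.03 in control. With Mcl1 left out, a choice made after the values were seen, the order turned, to 4.17 and 4.29 in Ogt iKO against 4.69 and 4.67 in control. The direction of such a ratio therefore depends on which pro-survival gene is counted. The ratio of Bcl2l1 to Mcl1 rose within the libraries from -4.61 and -4.61 to -3.51 and -3.64 on the log2 scale, and that of Pmaip1 to Mcl1 from -2.07 and -2.16 to -1.20 and -1.21. These ratios are given as values with no test, since the exact two-sided permutation test of 2 libraries against 2 cannot give a p below 0.333.

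**Figure D4:**
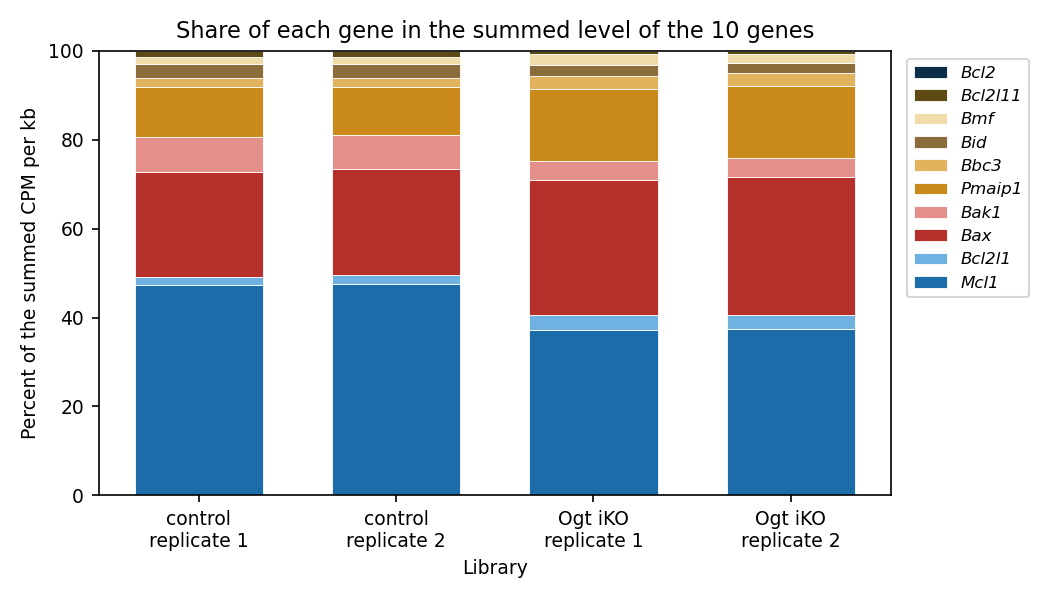
Share of each gene in the summed CPM per kb of the 10 genes, as a stacked bar for each library. The Mcl1 part is near 47% in both controls and near 37% in both Ogt iKO libraries, and the Bax part goes from near 24% to near 31%.

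Of the 15 other BCL2 family genes listed, 10 had enough counts to be tested, and 1 rose and 5 fell. Over all tested genes 33.2% rose and 32.0% fell, and these shares stand beside the counts of each list below. Bnip3, which encodes a BH3-containing protein of mitophagy induced by low oxygen, had 13.6 and 16.4 CPM in Ogt iKO against 30.4 and 37.0 CPM in control (log2 fold change -1.17 with SE 0.13, adjusted p 9.98e-05, edgeR). Bok, a relative of BAX and BAK, had 15.2 and 16.1 CPM against 29.1 and 24.6 CPM and fell by 0.78 on the log2 scale (SE 0.12, adjusted p 0.000491, edgeR), so 2 of the 3 BAX-like genes were lower. Bcl2l12, with 9.18 and 10.7 CPM against 16.6 and 16.5 CPM, fell by 0.74 (adjusted p 0.00157, edgeR).

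The BH3-only genes Bad and Bik also passed the test, at -0.38 and -0.81, with adjusted p values of 0.0322 and 0.0233 (edgeR). Bad had 13.3 and 12.3 CPM in Ogt iKO against 17.9 and 15.5 CPM in control, and its call was lost without Ogt iKO replicate 2 (-0.35) or control replicate 1 (-0.28) and with library totals (-0.21). Bik was counted only 42 and 27 times against 53 and 61 times, and its call was lost without Ogt iKO replicate 2 (-0.61) or control replicate 2 (-0.71) and with library totals (-0.64). Neither passed with DESeq2.

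Bcl2l13, a mitochondrial relative that overlaps Bid, was the single rise, by 0.25 on the log2 scale (SE 0.060, adjusted p 0.00554, edgeR). Log2 fold changes were 0.14 for Bcl2l2 (BCL-W), 0.28 for the BH3-only gene Hrk, 0.39 for Bcl2l14 and -0.0009 for Bnip3l, with adjusted p values from 0.202 to 0.992 (edgeR). Bcl2l10, Bcl2a1a, Bcl2a1b, Bcl2a1d and Bcl2l15 had at most 6 counts in any library and were not tested. The Bcl2a1 genes are near-identical copies, between which reads may be lost. The median of the 10 tested genes was -0.19.

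Of 12 genes of the apoptosome and caspases, a list that also holds caspases acting before cytochrome c release, 4 rose and 6 fell, with a median log2 fold change of -0.27. Apaf1, the scaffold of the apoptosome and a p53 target, rose from 82.3 and 89.4 CPM in control to 167 and 167 CPM in Ogt iKO (log2 fold change 0.96 with SE 0.063, adjusted p 6.697e-06, edgeR). Dffb, the nuclease that cuts DNA between nucleosomes, rose by 0.96 (adjusted p 9.647e-05, edgeR). Cycs, the cytochrome c gene itself, had only 2.64 to 3.65 CPM, and its count is uncertain because the genome holds many processed copies of it.

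Inhibitors of apoptosis proteins (IAPs) and their antagonists gave 3 rises and 2 falls among 8 genes, with a median log2 fold change of 0.22. Xiap, which blocks caspases directly, rose by 0.59 (SE 0.075, adjusted p 0.000178, edgeR). Birc5, the mitotic IAP survivin, fell by 0.51 (adjusted p 0.000236, edgeR). Septin4, which gives rise to an antagonist of XIAP, went from 4 and 5 counts in control to 77 and 81 in Ogt iKO, a rise of 4.02 on the log2 scale (SE 0.33, adjusted p 1.815e-05, edgeR). That was the largest change in any list examined here.

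Death receptors and their adaptors rose in 5 of 7 genes and fell in 1, with a median log2 fold change of 1.09. Tnfrsf10b, the mouse receptor for TRAIL, had 75.8 and 74.5 CPM in Ogt iKO against 35.9 and 34.9 CPM in control (log2 fold change 1.09 with SE 0.074, adjusted p 7.781e-06, edgeR). Tnfrsf1a, a TNF receptor, rose by 1.10 and its adaptor Tradd by 1.37, with adjusted p values of 5.254e-05 and 0.000176 (edgeR). The other rises were Cflar by 0.89 and Ripk1 by 0.65 (adjusted p 0.000253 and 0.00051, edgeR). The single fall was Fadd, to 61.2% of control (log2 fold change -0.71, adjusted p 0.0137, edgeR). With 7 genes in the list and 33.2% of all tested genes called higher, the share of 71.4% is given as a description.

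Among 10 mitochondrial partners of the family, 1 rose and 5 fell, with a median log2 fold change of -0.17. Vdac1 and Vdac2 encode channels of the outer membrane, and VDAC2 holds BAK and BAX at mitochondria. Vdac1 went from 733 and 728 CPM in control to 432 and 439 CPM in Ogt iKO (log2 fold change -0.75, adjusted p 1.08e-05, edgeR), and Vdac2 from 343 and 324 to 197 and 210 CPM (-0.71, adjusted p 2.349e-05). Mtch2, a receptor for BID on mitochondria, fell by 0.24 (adjusted p 0.00438, edgeR), a call lost with scaling by library totals (-0.07).

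Of 16 regulators of the transcription and turnover of the family, 5 rose and 10 fell, with a median of -0.29. Fbxw7 encodes a subunit of a ubiquitin ligase that marks MCL1, among other proteins, for degradation. It went from 83.5 and 82.9 CPM in control to 127 and 131 CPM in Ogt iKO (log2 fold change 0.63 with SE 0.059, adjusted p 3.652e-05, edgeR). Mycn, a MYC family factor that sensitises cells to apoptosis, fell by 1.19 (SE 0.071, adjusted p 4.345e-06, edgeR), from 187 and 203 CPM to 81.4 and 89.4 CPM. Of the other factors whose motifs were searched, Myc fell by 0.70, E2f1 by 0.38 and Stat3 by 0.30 on the log2 scale (adjusted p 0.000166, 0.00373 and 0.00465, edgeR). Trp53 also fell, Trp73 and Foxo3 rose, and Foxo1 did not pass, with the values given above. The calls of E2f1 and Stat3 were lost with scaling by library totals (-0.21 and -0.13). Over the 6 lists, 19 genes (30.2%) rose and 29 (46.0%) fell of 63 tested, beside 33.2% and 32.0% of all tested genes. With library totals as the only scaling, 23 genes of the lists rose and 18 fell. The balance between rises and falls across these lists therefore depends on the scaling.

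**Figure D5:**
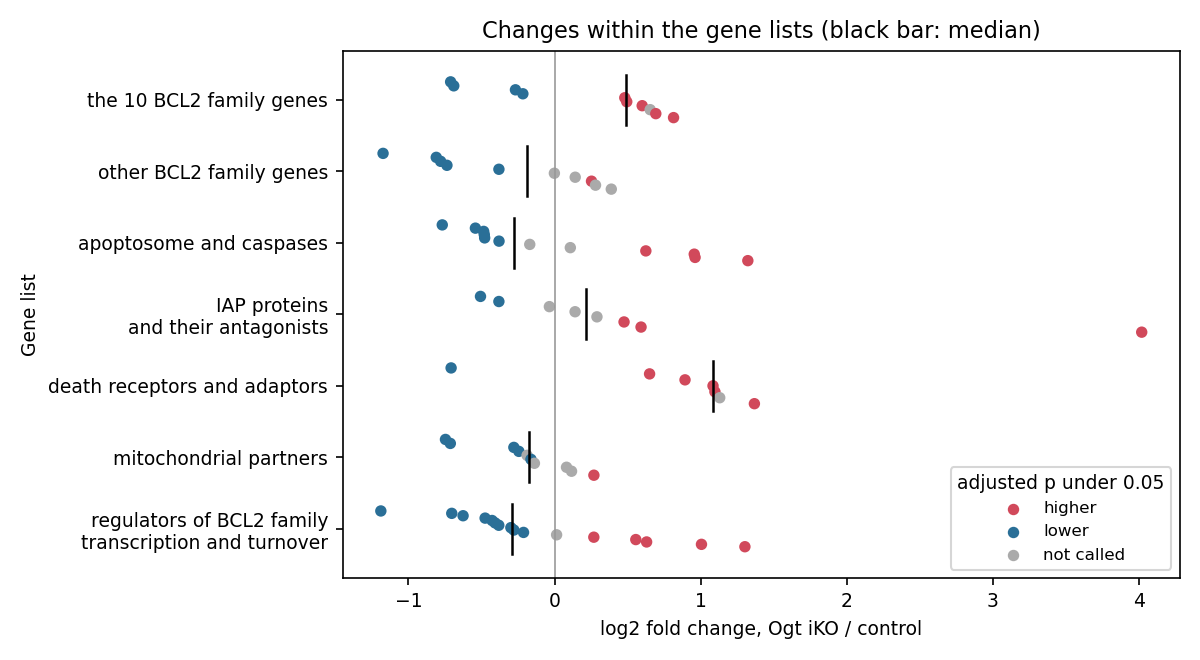
Log2 fold change of every tested gene of the 10 members and of the 6 other lists, with 1 point per gene (red for higher, blue for lower, grey for not past an adjusted p of 0.05) and a black bar at each median. Septin4 stands alone at 4.02, and every other point lies between -1.19 and 1.37.

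The genes whose pattern over the 4 libraries was nearest to that of Bcl2l1, the member with the smallest adjusted p, were Vps11, Tor1aip1 and Slc39a13. Likeness was the Euclidean distance between centred log2 CPM values over 4 libraries, computed for the 11377 genes whose log2 CPM averaged 2 or more. It was 0.0231, 0.0288 and 0.0295 for these genes. With 2 libraries in each of 2 groups, such a distance says little more than that the genes rose by a similar amount.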

How the data were processed

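RNA of 4 libraries, grouped and numbered by the titles in the labels, was analysed from the raw counts per gene symbol that the authors deposited, with no normalization. Per the submitters' processing notes STAR, Picard and mm10 were used. Versions, annotation and the strand counted are not given in the sources used here. The library kit was a stranded one for mRNA, per the labels' protocols. Counts were tested with edgeR 4.0.16 in R 4.3.3 (TMM, filterByExpr, quasi-likelihood test, no covariate, all 4 libraries, Benjamini-Hochberg over 14525 genes, called at 0.05), a script checked on simulated data. SE and 95% intervals were derived from each log2 change and the F statistic. CPM use TMM-scaled totals. Lengths, positions and overlaps came from GENCODE M21 (GRCm38), which matched 24688 of 25239 symbols. No transcript of another gene matched a member at 95% identity over 100 bases outside such overlaps (blastn 2.17.0+). Promoters came from RefSeq (GRCm38.p6) for 9 members, all but Pmaip1.

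The members and lists were chosen with earlier results of these data known. Named genes are all members, the other BCL2 family genes, up to 3 genes per other list with the smallest adjusted p, Ogt, and the 3 genes nearest in pattern to the member with the smallest adjusted p. Foxo1, Foxo3, Trp73, Myc, E2f1, Stat3, Pou5f1, Cycs, Cflar, Ripk1, Fadd, Col1a1, Lum, Tagln, Acta2, Pdgfrb, Sparc, Vim, Epcam, Thy1 and Ggnbp1 were named outside that rule, with values known. A gene that the rule names is not reported here. Alternatives were RLE, upper-quartile or no scaling factors, DESeq2 1.42.0, other filters (none, or CPM of at least 1 in 2 libraries), a robust fit, a block for replicate numbers, a threshold of 0.01, longest-transcript lengths and leaving out each library.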

Additional observations from a re-analysis of the deposited data

How the results depend on the processing

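Over 13 alternatives to the fit, the log2 fold changes of the 10 members gave 130 values, of which 121 kept their direction and side of the threshold, 7 lost the call (Mcl1 and Bid), 2 gained it (Bcl2) and 0 changed sign. The number of members lower went from 4 to 2 with library totals and with an adjusted p under 0.01, and was 3 to 4 with 1 library left out. Genes of the 6 lists called lower went from 29 to 18 with library totals. The pro-survival share of the summed level was 44.4% in control and 36.4% in Ogt iKO with the longest transcript as length, against 49.4% and 40.5%. The difference of the ratio of pro-apoptotic to pro-survival genes was 0.52 on the log2 scale, 0.43 without length and -0.46 without Mcl1, a choice made after seeing the data, and 0.51 to 0.52 with 1 library left out. Of 338 values for 26 other named genes, 11 lost the call (Bad and Bik 5 each, Mtch2 1), 1 gained it (Bcl2l2 with library totals, 0.31) and 4 changed sign, all for Bnip3l, at 0.0408 with upper-quartile factors, 0.17 with library totals, 0.0086 with a CPM of at least 1 and 0.0375 without control replicate 1 (-0.0554 to 0.0375 with 1 library left out). With the replicate number as a block, 5 members were higher and 4 lower, as without it, and 4922 and 4719 of all genes. Deviations of same-numbered libraries correlated at 0.0859 across genes, so the libraries were taken to share only a number. Depth limits Bcl2, Bik, Septin4, Bcl2l14 and Cycs, each tested with under 100 counts in every library.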
